A study of Mus musculus with 17 samples.

Results

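The *Zic* genes encode a family of zinc finger transcription factors, and 4 of them, *Zic1*, *Zic2*, *Zic4* and *Zic5*, are described here over astrocytes of the cortex and of 3 thalamic nuclei. They were taken as the rows whose Ensembl identifier carries 1 of those 4 symbols, and all 4 were found among the 26556 genes listed in the count tables. The genes were chosen by their CPM levels in these same libraries, with differences between cortex and nuclei in view, so every member's level and every difference between groups is a description and carries no test.

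Astrocytes were sorted by their green fluorescence from *Gfap::Gfp* mice (strain FVB in the labels, FVB/N-Tg in the study's methods) at postnatal day 7 (P7), a transgenic line in which the *Gfap* promoter drives the fluorescent protein, so a cell was taken for reporter activity and not for position in a lineage. All groups carried the transgene, and none was treated. The primary somatosensory cortex gave 4 libraries, the dorsolateral geniculate (dLG), the visual relay nucleus, gave 5, the ventral posteromedial nucleus (VPM), which relays touch of the face, gave 4, and the ventromedial geniculate (MGv), the auditory relay, gave 4. Each of the 17 libraries pooled tissue of 4 brains, so p-values measure the spread between pools. In bulk RNA, fewer cells of a type and less RNA per cell cannot be told apart.

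Zic proteins bind DNA through zinc fingers closely related to those of the Gli factors, the transcriptional effectors of Hedgehog signalling, and can act with them or on their own. In the embryo the family is best known for the dorsal neural tube, the neural crest, the cerebellum and the midline of the forebrain, where loss of *Zic2* causes holoprosencephaly. The genes sit in the genome as head-to-head pairs on opposite strands, *Zic1* with *Zic4* and *Zic2* with *Zic5*.

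In GRCm38, *Zic1* (ENSMUSG00000032368) occupied chr9:91358058-91365810 on the minus strand and *Zic4* (ENSMUSG00000036972) chr9:91362413-91389348 on the plus strand. Their annotated bodies overlapped at the 5′ ends by 3398 bases, of which 60 were exonic in both, 1.05% of the exonic length of *Zic1*. Each annotated start thus lay inside the body of the other gene. Whether reads were counted by strand is not given in the sources used here, so reads on those 60 bases could belong to either gene. A further 468 exonic bases of *Zic4*, 4.53% of its exonic length, were shared with *Gm37477*, annotated on the minus strand. *Zic5* (ENSMUSG00000041703) occupied chr14:122456795-122465677 on the minus strand and *Zic2* (ENSMUSG00000061524) chr14:122475435-122479852 on the plus strand, with 9757 bases between them.

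The start regions of *Zic1* and *Zic5* are shown because each gave more reads than its chromosomal partner, and because *Zic5* was detected in every group while *Zic1* was at the floor in the cortex. The sequences are RefSeq's for GRCm38.p6, limited to the bases before the start that lie outside annotated exons, 5′ to 3′ on the minus strand, with each GC box (GGGCGG on either strand) in capitals. The *Zic1* stretch is chr9:91365811-91366018, inside an intron of *Zic4*, and the *Zic5* stretch is chr14:122465678-122465908, between *Zic5* and *Zic2*.
Zic1: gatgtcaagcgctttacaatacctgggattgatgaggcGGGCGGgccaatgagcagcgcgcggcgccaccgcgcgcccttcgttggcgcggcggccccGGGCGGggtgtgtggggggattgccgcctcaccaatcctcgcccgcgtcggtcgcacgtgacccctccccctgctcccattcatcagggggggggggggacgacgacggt
Zic5: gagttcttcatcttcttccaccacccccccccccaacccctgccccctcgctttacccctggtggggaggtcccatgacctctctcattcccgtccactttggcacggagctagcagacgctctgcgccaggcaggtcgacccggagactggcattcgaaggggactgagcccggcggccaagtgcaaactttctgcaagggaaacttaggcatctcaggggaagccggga

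The *Zic1* stretch held 26 CpG dinucleotides and 2 GC boxes in 208 bases, and the *Zic5* stretch held 11 CpG dinucleotides and no GC box in 231 bases. Over the whole window of 300 bases around the start, of which 250 precede it, *Zic1* had 31 CpG dinucleotides and 3 GC boxes, *Zic5* 15 and 1, and *Zic4* 8 and 0. The median of 32851 RefSeq promoters of that length was 7 CpG dinucleotides, and 35.7% of them held a GC box. None of the 3 windows held TATAAA, found in 13.6% of all promoters, or CCTGCTG, found in 10.5%, on either strand. Such matches describe letters and not bound sites. The window of *Zic4* lay in annotated exons throughout and is not printed.

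Depth was similar over most libraries. The totals ran from 18213687 to 50366363 counts with a median of 20657167, and cortex replicate a held the highest. Levels are given as CPM, counts relative to the size of the library, scaled with TMM factors, and 3 counts corresponded to 0.0648 to 0.167 CPM on that scale. Those floors reflect sampling of reads alone, since the reads carry no molecular identifiers and copies made by PCR are counted as well. The 8 astrocyte markers together reached 11862 to 12825 CPM in cortical and 5716 to 9412 CPM in thalamic libraries, so the labelled cell type was present in all libraries, while 7 markers of the oligodendrocyte lineage reached 3634 to 7377 CPM and 10 neuronal markers 411 to 1503 CPM. Markers of other lineages were thus detected beside those of astrocytes.

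*Zic1* and *Zic4* were thalamic in these libraries. Both were at most at 3 counts in every cortical library, both were highest in the dLG, and both declined from the dLG over the VPM to the MGv, with no overlap between neighbouring groups. These levels were in view when the genes were chosen, and the share of all genes without such overlap was not counted. *Zic5* and *Zic2* had a different order. Their cortical levels overlapped those of the dLG, and their means were lower in the other nuclei.

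**Figure D1:**
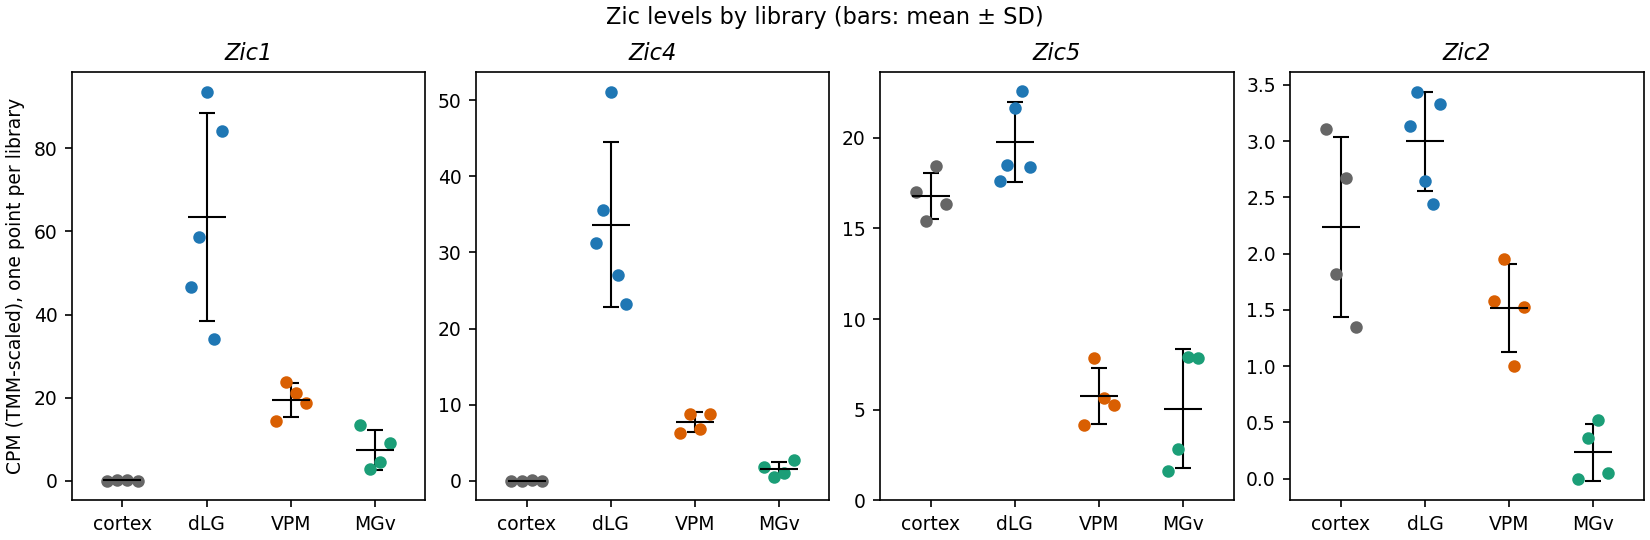
TMM-scaled CPM of each of the 4 members in each library (points) by group, with group mean ± SD (bars), on a linear axis of its own per gene. *Zic1* and *Zic4* lie near 0 in the cortex and step down from the dLG to the MGv, whereas *Zic5* has means of 16.8 CPM (cortex) and 19.8 CPM (dLG) against 5.73 CPM in the VPM and 5.05 CPM in the MGv.

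*Zic1*, known for its part in cerebellar and dorsal neural development, was the most abundant member in the thalamus. Its level was 46.6, 58.7, 93.6, 34.1 and 84.1 CPM in dLG replicates a to e. In the VPM it was 14.3, 23.6, 21.2 and 18.6 CPM in replicates a to d. In the MGv it was 13.5, 2.85, 4.46 and 9.06 CPM. The lowest dLG library exceeded the highest VPM library, while VPM replicate a and MGv replicate a lay within 1 CPM of each other across the boundary of their groups. In the cortex *Zic1* had 0, 3, 3 and 0 counts in replicates a to d, at most 0.148 CPM, where a dLG library had between 685 and 1983 counts.

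*Zic1* averaged 63.4 ± 25.0 CPM over the 5 dLG libraries (mean ± SD), 19.4 ± 4.00 CPM over 4 VPM libraries and 7.46 ± 4.79 CPM over 4 MGv libraries. Since no cortical library passed 3 counts, the fold against the cortex is a lower bound, set against the highest floor of 3 counts in a cortical library, 0.148 CPM. *Zic1* was at least 427-fold higher in the dLG, 131-fold in the VPM and 50.3-fold in the MGv than in the cortex. Between nuclei the log2FC of *Zic1* was 1.74 (SE 0.39) for the dLG against the VPM, 3.09 (SE 0.42) for the dLG against the MGv and 1.35 (SE 0.41) for the VPM against the MGv.

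*Zic4*, its partner on chromosome 9, whose loss together with *Zic1* underlies a Dandy-Walker-like malformation of the cerebellum, followed the same order of groups at lower levels. It reached 31.2, 35.6, 51.1, 27.0 and 23.2 CPM in dLG replicates a to e. It was 6.25, 8.75, 6.80 and 8.82 CPM in the VPM. It was 1.73, 0.414, 1.00 and 2.72 CPM in the MGv. The 3 nuclei did not overlap, and the gap between the dLG and the VPM, from 23.2 down to 8.82 CPM, was wider in proportion than that of *Zic1*. In the cortex 1 read in replicate c was the only read of *Zic4* in 4 libraries.

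The dLG mean of *Zic4* was 33.7 ± 10.8 CPM (SD, n = 5), that of the VPM 7.66 ± 1.32 CPM (n = 4) and that of the MGv 1.46 ± 0.994 CPM (n = 4). Against the cortical floor *Zic4* was higher by at least 227-fold in the dLG, 51.6-fold in the VPM and 9.87-fold in the MGv. The log2FC of *Zic4* was 2.16 (SE 0.37) for the dLG against the VPM, 4.50 (SE 0.43) for the dLG against the MGv and 2.34 (SE 0.41) for the VPM against the MGv. Of the 4 members, it had the largest difference between the dLG and the other nuclei.

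The pair did not change in fixed proportion. The ratio of *Zic1* to *Zic4* counts ran from 1.26 to 3.62 in the dLG (median 1.65), from 2.11 to 3.11 in the VPM (median 2.49) and from 3.33 to 7.78 in the MGv (median 5.68). The medians thus rose as the levels of both genes fell, though the ranges of the dLG and the VPM overlapped, and so did those of the dLG and the MGv. The highest dLG ratio, 3.62, belonged to replicate e, the library with the second highest *Zic1* and the lowest *Zic4* of its group. In the MGv the ratio of replicates b and c rested on 8 and 21 *Zic4* counts.

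**Figure D2:**
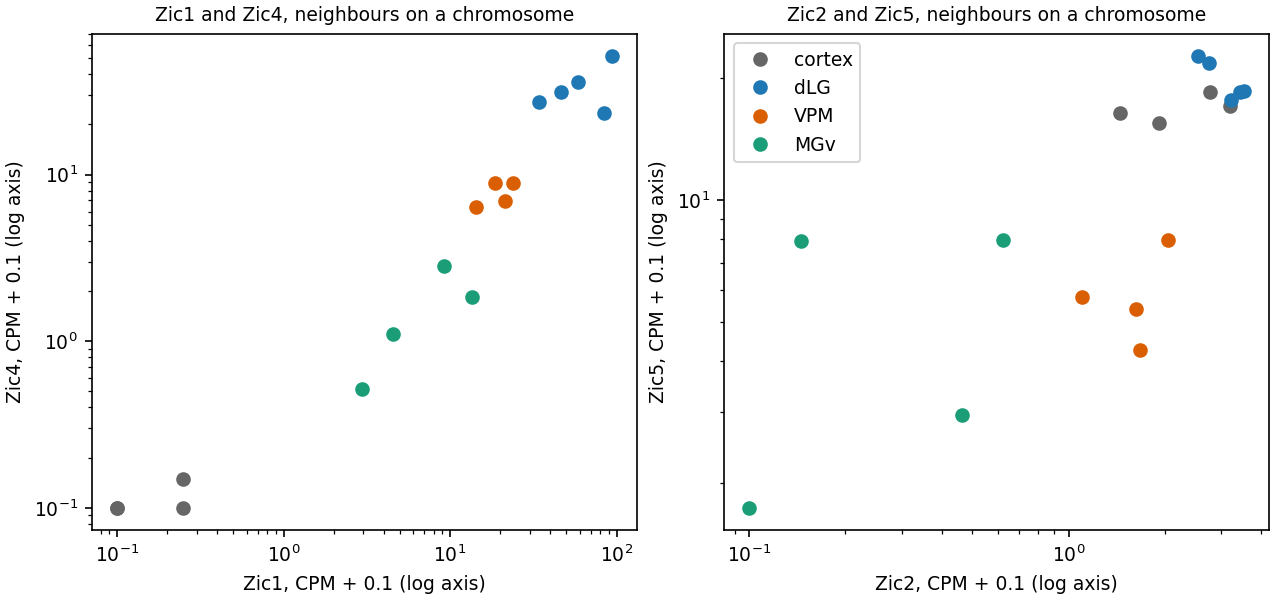
Level of each gene against its chromosomal neighbour, 1 point per library, with 0.1 CPM added and both axes logarithmic; colours mark the groups, and cortex replicates a and d coincide at the lower left of the left panel. *Zic1* and *Zic4* fall along a line from the cortex to the dLG, while in the right panel the cortex lies with the dLG and the MGv libraries spread over *Zic5* levels of 1.63 to 7.88 CPM.

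*Zic5*, the member whose loss perturbs neural crest and dorsal neural tube development, was a gene of both regions. It was 17.02, 15.4, 18.5 and 16.4 CPM in cortex replicates a to d. It was 17.6, 18.5, 21.7, 22.6 and 18.4 CPM in dLG replicates a to e. These ranges overlapped, and their means, 16.8 ± 1.27 CPM (SD, n = 4) and 19.8 ± 2.21 CPM (n = 5), stood at a ratio of 1.18. In the VPM *Zic5* was 4.15, 7.86, 5.65 and 5.27 CPM. In the MGv it was 1.63, 2.85, 7.88 and 7.84 CPM, so that replicates a and b were below every VPM library and replicates c and d level with the highest of them.

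The VPM and MGv means of *Zic5*, 5.73 ± 1.55 CPM (SD, n = 4) and 5.05 ± 3.28 CPM (n = 4), lay close together, and the log2FC between them was 0.15 (SE 0.40), which turned negative in 3 of 20 other settings, down to -0.15. Every dLG library was above every VPM and MGv library, with a log2FC of 1.81 (SE 0.39) against the VPM and 1.96 (SE 0.39) against the MGv. Averaged over 13 thalamic libraries, *Zic5* had a log2FC of -0.62 (SE 0.49) against the cortex, which combines a nucleus at the cortical level with a pair of nuclei far below it.

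*Zic2*, the holoprosencephaly gene, was the scarcest member in each nucleus by mean CPM. Its counts were 144, 37, 54 and 28 in the cortex, where replicate a was the deepest library, and its level was 3.11, 1.82, 2.67 and 1.35 CPM. In the dLG it was 3.13, 3.44, 2.64, 2.44 and 3.33 CPM. In the VPM it was 1.58, 1.95, 1.00 and 1.53 CPM. In the MGv it had 0, 7, 11 and 1 counts, 0 to 0.522 CPM, below every other library of the series. The cortex overlapped both the dLG and the VPM, while the dLG lay above the VPM throughout.

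Its dLG mean was 3.00 ± 0.436 CPM (SD, n = 5), followed by the cortex with 2.24 ± 0.798 CPM (n = 4), the VPM with 1.51 ± 0.391 CPM (n = 4) and the MGv with 0.232 ± 0.252 CPM (n = 4). The log2FC of *Zic2* was 1.01 (SE 0.66) for the dLG against the VPM, 3.65 (SE 0.77) for the dLG against the MGv and 2.64 (SE 0.76) for the VPM against the MGv. The values against the MGv leaned on MGv replicate c, which gave 11 of the group's reads. Without it they were 4.44 and 3.44. Against the cortex the thalamic libraries had a log2FC of -0.41 (SE 0.75), or -1.13 when the nuclei were weighted equally in a fit of 4 groups.

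The *Zic5* to *Zic2* pair was thus closer in its order over groups than in its proportions. *Zic5* counts were a median of 7.70 times those of *Zic2* in the cortex (5.47 to 12.1), 5.63 times in the dLG (5.39 to 9.27) and 3.74 times in the VPM (2.64 to 5.65). In the MGv only replicates b and c held more than 3 *Zic2* counts, with ratios of 7.86 and 15.1. MGv replicate a is an example of how far members could part. It had the highest *Zic1* of its nucleus together with the lowest *Zic5* and no read of *Zic2*.

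**Figure D3:**
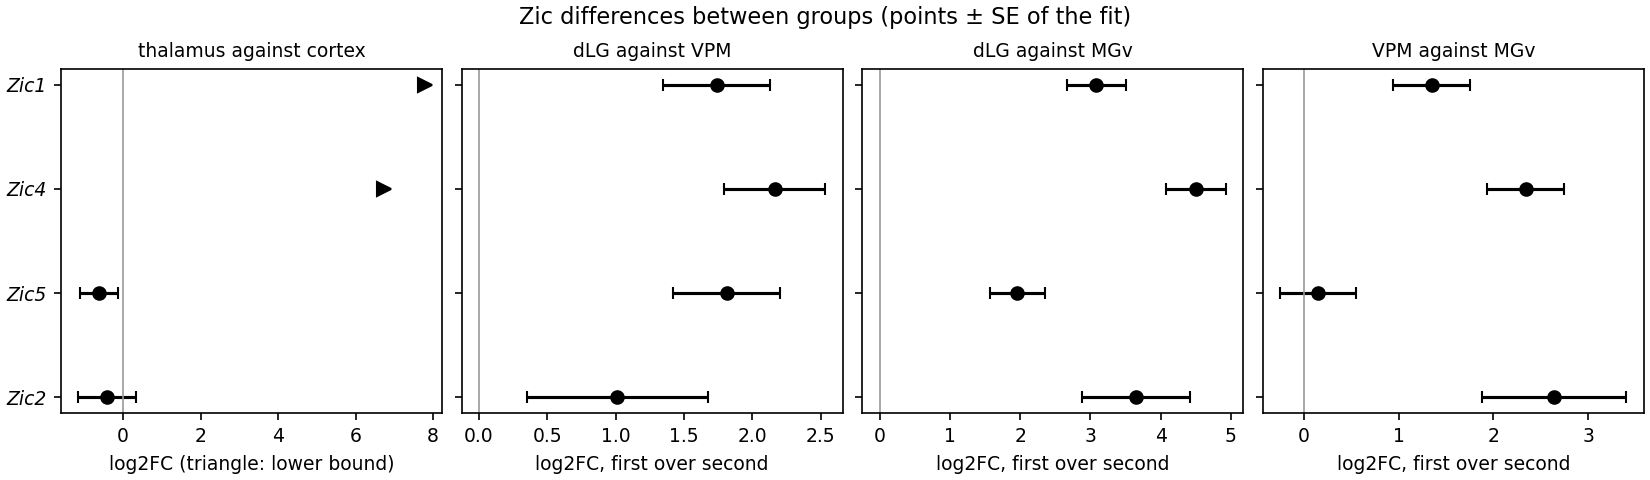
Difference of each of the 4 members between groups as log2FC of the first group over the second, with points and bars for the estimate ± SE from edgeR and triangles for lower bounds of genes with at most 3 counts in every cortical library. Each panel has its own axis. All 4 lie above 0 for the dLG against either nucleus, whereas in the thalamus against cortex panel *Zic5* and *Zic2* lie at -0.62 and -0.41, and between the VPM and the MGv *Zic5* lies at 0.15.

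Among all genes tested with edgeR's quasi-likelihood test at a Benjamini-Hochberg (BH) adjusted p under 0.1, 5.45% were higher in the thalamus and 5.93% higher in the cortex. For the nuclei, 6.48% were higher in the dLG and 3.16% in the VPM, 0.370% higher in the dLG and 0.277% in the MGv, and 4.53% higher in the VPM and 6.89% in the MGv. All 4 members passed the filter on low counts in each comparison. Of them, 2 were called higher in the thalamus than in the cortex, 3 higher in the dLG than in the VPM, 4 higher in the dLG than in the MGv and 3 higher in the VPM than in the MGv, and none was called in the other direction. Nothing is read from these counts, since the same contrasts were in view when the genes were chosen, and the 3 comparisons between nuclei share libraries.

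Counted together, the 4 members summed to 119.8 ± 32.1 CPM for the dLG (SD, n = 5), 34.3 ± 6.51 CPM for the VPM (n = 4), 19.1 ± 1.899 CPM for the cortex (n = 4) and 14.2 ± 5.67 CPM for the MGv (n = 4). The cortical sum was close to that of the MGv. Per kilobase of all annotated exons of a gene, *Zic5* made up 76.3% to 87.7% of the cortical level and *Zic1* at most 0.679%. In the VPM *Zic1* made up 55.6% to 63.2% and *Zic5* 18.8% to 22.1%. The dLG had a similar make-up to the VPM at a higher level, with 42.6% to 67.3% for *Zic1* and 10.3% to 19.0% for *Zic4*. The MGv was the most uneven nucleus, since the share of *Zic1* ran from 29.3% in replicate c to 82.5% in replicate a.

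**Figure D4:**
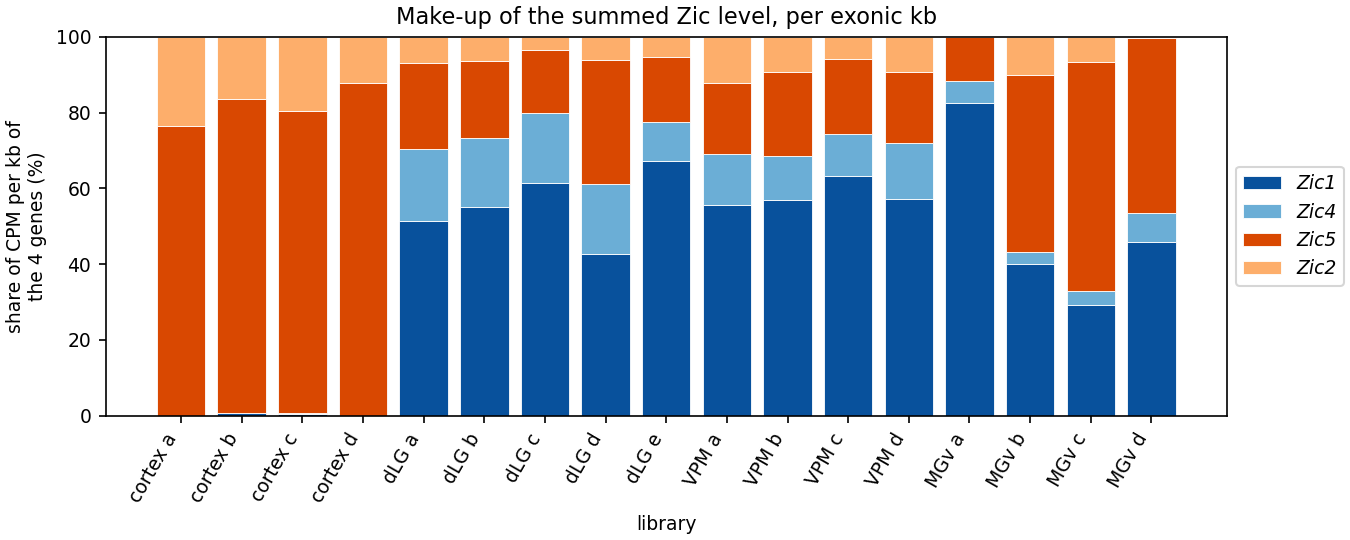
Share of each of the 4 members in their summed CPM per exonic kilobase, 1 stacked bar per library. The 4 cortical bars are made almost entirely of *Zic5* and *Zic2*, *Zic1* has the largest share in each dLG and VPM bar, and the 4 MGv bars differ among themselves, with *Zic5* between 11.7% and 60.3%.

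Between genes, levels were compared per kilobase of exon. The length was that of all annotated exons of a gene together, 10335 bases for *Zic4* and 4889 for *Zic5*. In the dLG the mean was 11.1 CPM per kilobase for *Zic1*, 4.04 for *Zic5*, 3.26 for *Zic4* and 1.04 for *Zic2*. In the VPM it was 3.41 for *Zic1*, 1.17 for *Zic5*, 0.741 for *Zic4* and 0.526 for *Zic2*, the same order. That order depends on the lengths. By CPM alone, *Zic4* stood above *Zic5* in the dLG (33.7 and 19.8 CPM) and in the VPM (7.66 and 5.73 CPM). In the MGv *Zic1* with 1.31 and *Zic5* with 1.03 lay close together, within the SD of either, ahead of *Zic4* with 0.142 and *Zic2* with 0.0807. In the cortex *Zic5* stood at 3.44 and *Zic2* at 0.777 CPM per kilobase.

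The libraries came in series of library numbers, which the sources do not explain, and the order of the members was looked at within them. In the largest series, which held all MGv libraries, mean *Zic1* was 52.6 CPM in the dLG, 19.9 CPM in the VPM and 7.46 CPM in the MGv. In the other series, which held no MGv library, *Zic1* was 59.1 CPM in the dLG and 19.0 CPM in the VPM. *Zic4* was 33.4 and 7.81 CPM in the dLG and VPM of the largest series and 25.1 and 7.50 CPM in the other. *Zic5* in the cortex was 17.4 CPM in the largest and 16.2 CPM in the other series, each close to its dLG mean of 18.1 and 20.5 CPM. Each of these means rests on 2 libraries, apart from the MGv, and dLG replicate c was alone in its series.

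Genes were ranked by likeness to each member with Pearson's r of log2(CPM + 0.5) over the 17 libraries, among 17855 other genes, as a description in which all points share groups and libraries. Of the top 5, those named here for *Zic1* are *Barhl2* (r = 0.98), *Zic4* (0.96), *Wnt3* (0.95) and *Nid1* (0.95). *Wnt3*, a secreted Wnt ligand, averaged 2.80 CPM in cortical libraries, 59.8 CPM in the dLG, 28.0 CPM in the VPM and 11.8 CPM in the MGv. For *Zic4* they were *Six3* (0.97), *Wnt9b* (0.96), *Zic1*, *Six3os1* (0.96) and *Wnt3* (0.94). *Six3*, a homeobox factor of the anterior forebrain, averaged 28.8 CPM in the dLG and 1.39 CPM in the MGv, with 6.90 to 13.8 CPM in the VPM and a mean of 0.146 CPM in the cortex.

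The highest r were lower for the chromosome 14 pair, whose levels spanned less between groups than those of *Zic1* and *Zic4*. An r over all libraries depends on that span, so it does not rank the pairs by closeness. For *Zic5* the genes were *Aspg* (0.87), *Fgfr2* (0.85), *Apba2* (0.84), *Cpne8* (0.83) and *Ccdc80* (0.83), and for *Zic2* they were *Cyp4f15* (0.90), *Sept4* (0.90), *Cpne8* (0.86), *Gm29521* (0.83) and *Gsx2* (0.82). *Fgfr2*, a receptor for fibroblast growth factors, averaged 120.7 CPM in cortical and 93.9 CPM in dLG libraries against 63.6 CPM in the VPM and 62.4 CPM in the MGv. *Cpne8* stood in both lists, with 23.0 CPM in the cortex, 26.2 CPM in the dLG, 11.7 CPM in the VPM and 8.47 CPM in the MGv. By Spearman's rho, 3 of 5 genes stayed among the top 5 for *Zic1*, *Zic2* and *Zic4*, and 1 of 5 for *Zic5*.

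Within nuclei, the levels of members over libraries were compared after subtracting each nucleus mean, over 13 libraries and 14 relations, with exact permutation tests over 69120 arrangements of libraries within nuclei. None passed an adjusted p of 0.1. *Zic1* and *Zic4* had the highest r, 0.704 (2-sided exact permutation p = 0.0612, adjusted p = 0.477), with rho = 0.659 (permutation p = 0.0670, adjusted p = 0.469). Their r was 0.593 without MGv replicates a and b, and 0.827 in the 8 libraries of the largest series (unadjusted permutation p = 0.125). *Zic5* and *Zic2* had r = 0.286 (permutation p = 0.453, adjusted p = 0.634), with rho = 0.126 (permutation p = 0.674, adjusted p = 0.857). For this pair r was 0.346 in the largest series (unadjusted permutation p = 0.469) and -0.481 without MGv replicates a and c. The sign of that relation thus rested on those libraries.

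Other cell types in the sort were followed by their markers, whose part in the results was not tested. Against the mean log2 level of 10 neuronal markers, *Zic4* had r = 0.615 (exact permutation p = 0.0759, adjusted p = 0.477) with rho = 0.632 (permutation p = 0.0601, adjusted p = 0.469). Its r was 0.397 without MGv replicates b and d, and 0.882 in the 8 libraries of the largest series (permutation p = 0.0417, not adjusted for the 14 relations). *Zic1* had r = 0.423 (permutation p = 0.266, adjusted p = 0.569) with rho = 0.357 (permutation p = 0.308, adjusted p = 0.539). Its r was 0.139 without MGv replicates a and b, and 0.821 in the largest series (unadjusted permutation p = 0.240). The r of the remaining relations, among them all 4 with the meningeal markers, ran from -0.637 for *Zic2* and the neuronal markers to 0.280 for *Zic4* and *Zic5*. The summed neuronal level was 749 to 995 CPM in the cortex, 927 to 1284 CPM in the dLG, 448 to 1313 CPM in the VPM and 411 to 1503 CPM in the MGv. Of the 10 markers, 2 were higher in the thalamus than in the cortex, *Slc17a6* (log2FC 3.01) and *Nefm* (2.29), and 1 was lower, *Rbfox3* (-1.21). Between nuclei, 1 was higher and 1 lower in the dLG than in the VPM, 1 higher in the dLG than in the MGv and 2 higher in the VPM than in the MGv.

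Meningeal fibroblasts express *Zic* genes, and their 9 listed markers summed to 18.9 to 32.9 CPM in the cortex, 10.9 to 23.1 CPM in the dLG, 13.8 to 21.6 CPM in the VPM and 15.4 to 34.7 CPM in the MGv, so that the dLG overlapped every other group. In the cortex 3 of the 9 were at 3 counts or fewer in every library. Of 7 tested, 2 were higher in the thalamus, *Aldh1a2* (fitted log2FC 4.91) and *Dcn* (8.84), and 1 lower, *Col1a2* (-0.82). *Aldh1a2* and *Dcn* were at 3 counts or fewer in every cortical library, so the size of their fitted log2FC is uncertain. The call of *Aldh1a2* was lost in 6 of 24 other settings. *Col1a2* had the highest mean of the list in each group (cortex 23.4, dLG 10.4, VPM 14.5, MGv 15.6 CPM). Means of *Aldh1a2* followed the order of *Zic1* (dLG 1.40, VPM 0.502, MGv 0.0679, cortex 0.0175 CPM). *Dcn*, without a cortical read, was highest in the MGv (dLG 1.98, VPM 0.489, MGv 5.47 CPM). Of 5 tested between nuclei, 1 was lower in the VPM than in the MGv, *Dcn* (adjusted p = 0.0779 by edgeR). That call was lost in 9 of 20 other settings, with an adjusted p of up to 0.203. The part of fibroblasts in the *Zic* levels was not tested. The 6 microglial markers summed to 10.9 to 91.8 CPM in the dLG and 6.68 to 11.2 CPM in the VPM. Their sum was 11.8 to 54.5 CPM in the MGv and 10.8 to 19.7 CPM in the cortex. Of them, 3 were higher in the dLG and 3 higher in the MGv than in the VPM. With each library left out, the number called ranged from 1 to 5 for the dLG against the VPM and from 1 to 4 for the VPM against the MGv. Like those markers, *Zic1* and *Zic4* were higher in the dLG than in the VPM, but they went the other way between the VPM and the MGv. The part of microglia in their levels was not tested.

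For the remaining cell types, 3 of 8 astrocyte markers were lower in the thalamus, 2 higher and 1 lower in the dLG than in the VPM, 1 higher in the dLG than in the MGv, and 2 higher and 1 lower in the VPM than in the MGv. Of 7 oligodendrocyte lineage markers, 1 was higher in the dLG than in the VPM, *Cspg4* (adjusted p = 0.0883 by edgeR, lost in 12 of 20 other settings with values of up to 0.211), and 3 were higher and 2 lower in the VPM than in the MGv. Endothelial and mural markers gave 1 of 7, lower in the thalamus, and markers of ependyma and choroid plexus gave 1 of 2 lower in the thalamus and 1 of 2 lower in the VPM than in the MGv. The medians of these marker lists ran from -3.59 to 2.37 on the log2 scale, the lowest for the ependymal list in the VPM against the MGv (-2.61 with a gene at the floor in 1 group set to its bound) and the highest for the microglial list in the dLG against the VPM, where the medians of all genes tested were between -0.04 and 0.02.

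The Gli and Glis factors, which share the zinc fingers of the Zic proteins, were taken as a list of 6, and all 6 were tested. In the thalamus 1 was higher than in the cortex, *Glis1* (log2FC 0.79, SE 0.22, adjusted p = 0.0313 by edgeR), and none was lower, with a list median of 0.06 beside 0.02 for all genes. The call of *Glis1* was lost without cortex replicate a or b, with an adjusted p of up to 0.129. *Gli2*, *Gli3*, *Glis2* and *Glis3*, and the Hedgehog target *Gli1*, did not pass between the regions, with values from -0.43 for *Gli1* to 0.38 for *Glis2*. *Gli1* passed in a fit of 4 groups, at -1.06 (adjusted p = 0.0616 by edgeR).

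Between nuclei these relatives did not step down like *Zic1*. *Gli1*, whose transcription reports Hedgehog signalling, was lowest in the VPM, at 0.860 CPM, against 6.71 CPM in the dLG, 10.9 CPM in the MGv and 8.35 CPM in the cortex. It was higher in the dLG than in the VPM by a log2FC of 2.99 (adjusted p = 0.00788 by edgeR) and lower in the VPM than in the MGv by -3.69 (adjusted p = 0.00169). *Gli3*, mainly a repressor of the same pathway, was higher in the dLG than in the VPM (1.25, adjusted p = 0.0843) and lower in the VPM than in the MGv (-1.45, adjusted p = 0.0545), calls that were lost in 10 and 5 of 20 other settings, with adjusted p of up to 0.237 and 0.163. *Glis2*, of which 10.4% of the exonic length overlaps another gene, was lower in the VPM than in the MGv (-0.79, adjusted p = 0.0732), a call lost in 6 of 20 settings with an adjusted p of up to 0.221. Thus 2 of 6 were higher in the dLG than in the VPM (list median 0.74, all genes 0.01), and 3 of 6 were lower in the VPM than in the MGv (-1.35, all genes -0.04). Between the dLG and the MGv edgeR called 0 of 6 (list median -0.29, all genes -0.0038), with 0 at an unadjusted p under 0.05 and 0 called by DESeq2.

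Genes that the literature links to Zic proteins were counted in a list of 13 in the tables, 12 of them tested. Of these, 3 were higher and 4 lower in the thalamus than in the cortex (list median 0.44), 3 were higher in the dLG than in the VPM (0.59), 1 was lower in the dLG than in the MGv (0.02), and 3 were lower in the VPM than in the MGv (-0.14). The 7 calls against the cortex became 3 without cortex replicate b or c and 4 without a or d, and the call between the dLG and the MGv, *Grin2c*, was lost in 12 of 20 other settings with an adjusted p of up to 0.383 by edgeR. *Slc6a4*, the serotonin transporter, averaged 0.581 CPM in cortical libraries and 40.4, 42.5 and 43.7 CPM in the dLG, VPM and MGv, a log2FC of 6.20 for the thalamus (adjusted p = 1.41e-05 by edgeR), so it did not follow the steps of *Zic1* between nuclei. *Drd1*, a dopamine receptor gene, was lower in the thalamus (-3.09, adjusted p = 0.0215). *Axin2*, a target of Wnt signalling, was higher in the dLG than in the VPM (1.71, adjusted p = 0.00217) and lower in the VPM than in the MGv (-1.14, adjusted p = 0.0164), with its lowest mean in the VPM as for *Gli1*. *Pax3*, a dorsal neural tube factor that is also a factor of the neural crest, was highest in the MGv, at 16.4 CPM, where *Zic1*, *Zic4* and *Zic2* were at their lowest among the nuclei, against 0.515 CPM in the VPM (-5.00, adjusted p = 0.0121).

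Genes of the dorsal midline and roof plate, the embryonic domain of several *Zic* genes, gave 1 higher and 1 lower of 8 tested for the thalamus (list median -0.81), 1 and 1 of 7 for the dLG against the VPM (-0.27), 1 lower of 7 for the dLG against the MGv (-0.43) and 3 lower of 7 for the VPM against the MGv (-0.58). *Wls*, needed for Wnt secretion, was higher in the thalamus (1.75, adjusted p = 5.01e-05 by edgeR). Its means were 132.9 CPM in the dLG, 163.3 CPM in the VPM and 237.8 CPM in the MGv, in the reverse order of *Zic1*, and it was lower in the dLG than in the MGv (-0.85, adjusted p = 0.0285), a call lost in 3 of 20 settings with an adjusted p of up to 0.215.

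Territories next to the sensory nuclei were followed by further lists. Of the prethalamic genes, 1 was higher and 3 lower of 6 tested in the thalamus (list median -2.03), 2 of 3 were higher in the dLG than in the VPM (1.42), 2 of 3 higher in the dLG than in the MGv (4.36), and 1 was higher and 1 lower of 3 in the VPM than in the MGv (-0.51). *Sp9* averaged 59.0 CPM in the dLG, 0.441 CPM in the VPM and 2.39 CPM in the MGv, and its log2FC between the dLG and the VPM was 7.05 (adjusted p = 1.05e-05 by edgeR). *Six3* fell in the order of *Zic4*, by 4.36 between the dLG and the MGv (adjusted p = 8.20e-05). The summed prethalamic level was 113 to 162 CPM in the dLG, 35.4 to 52.5 CPM in the VPM, 38.1 to 66.5 CPM in the MGv and 68.9 to 126 CPM in the cortex. The list did not move as one, since *Dlx1* and *Dlx2* averaged 17.4 and 21.5 CPM in the cortex and 0.133 and 0.128 CPM in the dLG, with log2FC of -7.15 and -6.69 for the thalamus (adjusted p = 3.91e-07 and 3.82e-06 by edgeR). The part of these genes in the level of the *Zic* genes was not tested.

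Habenular genes gave 1 of 3 higher in the thalamus (list median 0.53), 1 of 2 higher in the dLG than in the VPM (1.61), 0 of 2 by edgeR between the dLG and the MGv (0.13) and 1 of 2 lower in the VPM than in the MGv (-1.48). Pretectal and midbrain genes gave 4 of 5 higher in the thalamus (4.60, or 3.80 with genes at the floor set to their bound), 2 of 5 higher in the dLG than in the VPM (2.35), 0 of 5 by edgeR between the dLG and the MGv (0.86) and 1 of 5 lower in the VPM than in the MGv (-3.10, or -0.95 with that bound). Between the dLG and the MGv, 0 of the habenular and 2 of the pretectal and midbrain genes had an unadjusted p under 0.05, and DESeq2 called 0 of either list. The summed level of the pretectal and midbrain genes was 18.1 to 33.8 CPM in the dLG, 10.4 to 15.6 CPM in the VPM and 15.5 to 34.0 CPM in the MGv. Single genes differed in their order. In the dLG, VPM and MGv, *Pax3* averaged 2.62, 0.515 and 16.4 CPM and *En1* 6.26, 6.64 and 5.32 CPM. *Sox14* averaged 5.09, 0.0250 and 0.323 CPM and *Gata3* 1.99, 0.0697 and 0.606 CPM. The part of these genes in the levels of the members was not tested.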

How the data were processed

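RNA-seq was measured in 17 libraries of sorted P7 astrocytes. The authors checked the reads with FastQC (0.11.7), trimmed them with Cutadapt (2.3) and Trim Galore (0.6.1), mapped them to GRCm38.p6 with STAR (2.7.0d), processed alignments with SAMtools (1.9), counted reads on genes of Ensembl release 95 with featureCounts (Subread 1.6.4) and deposited raw counts per gene, not normalized. Of 26556 identifiers, 26548 were matched to a symbol and 8 were not. No 2 libraries were identical. The totals per library, 18213687 to 50366363, make 3 counts worth 0.0596 to 0.165 CPM before TMM scaling.

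Groups follow the sample labels. Counts were scaled by TMM, filtered with filterByExpr and compared with the robust quasi-likelihood test of edgeR (4.0.16) with BH adjustment over all genes tested, at 0.1, as thalamus against cortex (17856 genes) and between nuclei in a fit of 3 nuclei (17319 genes). SEs are the size of the log2FC over the square root of *F*. Correlations used log2(CPM + 0.5) and exact permutation tests. Sequences came from RefSeq. The tests were tested on simulated data. The members and lists were chosen with earlier results of these data known. Named genes are the members, the 5 genes most like each member, and from each list those called with the 3 lowest p per comparison, of which some are given as counts. Some genes that fall under this rule or belong to a list are not reported here. Alternatives were DESeq2 (1.42.0), its size factors in edgeR, no filter, a threshold of 0.05, 1 fit of 4 groups, blocking on the replicate letter (without dLG replicate e), library number series as covariate (without dLG replicate c), unscaled CPM, a pseudocount of 2, Spearman's rho and each library left out. Means within library number series were added after seeing the data. Software was R 4.3.3, limma 3.58.1, Python 3.11.15, matplotlib 3.10.9, scipy 1.17.1, pandas 2.3.3 and numpy 2.4.6.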

Additional observations from a re-analysis of the deposited data

How the results depend on the processing

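The order of the members' group means held with CPM by library total, and none of 108 recomputed means moved by 1 SD or more. Of 274 recomputed member log2FC values, 3 moved by 1 SD or more, all of *Zic2* against the MGv, and 3 changed sign, all of *Zic5* between the VPM and the MGv. With each library left out, *Zic2* ranged from 3.24 to 4.44 for the dLG against the MGv and from 2.23 to 3.44 for the VPM against the MGv. The number of members called ranged from 2 to 3 for the dLG against the VPM, 2 to 4 for the dLG against the MGv and 1 to 3 for the VPM against the MGv, and stayed at 2 for the thalamus. Of 224 recomputed correlations, 0 passed the threshold. Of 1092 recomputed list counts, 941 were within 1.5 times.

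The numbers of all genes called moved more. With DESeq2 they were 1704 higher in the thalamus (974 with edgeR), 2038 higher in the dLG and 1013 in the VPM (1122 and 548), 185 in the dLG and 160 in the MGv (64 and 48), and 1240 in the VPM and 1965 in the MGv (785 and 1194). At a threshold of 0.05 they were 612 in the thalamus, 511 in the dLG and 194 in the VPM, and 346 in the VPM and 612 in the MGv. Adjusted for library number series, without dLG replicate c, they were 580 in the dLG and 223 in the VPM, and 38 in the dLG and 25 in the MGv. In a fit of 4 groups they were 1029 in the VPM against the dLG, 102 in the dLG and 81 in the MGv, and 1322 in the VPM against the MGv. The cause was not tested. With each library left out they ranged from 523 to 1196 in the thalamus, 616 to 1224 in the cortex (1059), 253 to 1827 in the dLG and 104 to 1320 in the VPM, 38 to 72 in the dLG and 28 to 61 in the MGv, and 268 to 1229 in the VPM and 444 to 1769 in the MGv.

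The replicate letters are shared between groups, and the sources do not say what they stand for. Of 24 pairs of libraries with the same letter, 4 had a correlation of deviations above 0.1, so the letters were not taken as pairs. With the replicate block, which left out dLG replicate e, 677 genes were higher in the dLG than in the VPM and 1349 higher in the VPM than in the MGv. Without that library and without the block, 649 genes were higher in the dLG than in the VPM. Counts were low for *Zic1* and *Zic4* in the cortex, at most 3 per library, and for *Zic2* in the MGv, 0 to 11. Cortex replicate a, the deepest library with a total of 50366363, had 0 counts of *Zic1* and *Zic4*. Totals of the MGv libraries (18785731 to 21337165) were similar to those of the dLG (19050424 to 21371571).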
